A study of Mus musculus with 4 samples.

Results

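The nuclei described here are endothelial nuclei, chosen by their marker transcripts from single-nucleus RNA sequencing of the mouse basolateral amygdala (BLA), a brain region that links sensory cues with threat and reward. Single transcripts were counted by their unique molecular identifiers (UMIs). A nucleus was kept when it held at least 500 detected genes and under 5% mitochondrial UMIs. It was called endothelial when Flt1, Cldn5, Ptprb, Mecom and Pecam1 together gave at least 3 UMIs and at least 10 UMIs per 10000, and more UMIs than the pericyte genes Pdgfrb, Rgs5, Abcc9 and Atp13a5. At most 1 UMI of the neuronal genes Slc17a7, Gad1 and Gad2, and at most 1 of the oligodendrocyte genes Mobp and Mog, was allowed. This rule found 112 endothelial nuclei among 26850 kept nuclei and 27313 barcodes. The counts of the 14 genes in the rule chose the nuclei, so they are described here and were not tested between classes of nuclei. The 5 endothelial marker genes stayed among the genes fitted between the genotypes, where 0 of them were called.

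The 2 groups were DISC1-N mice and wild-type (WT) mice, both of strain C57BL/6J, and the series title places the comparison in a study of amygdala neurons, astrocytes and risk assessment. The DISC1-N label (written DISC-N for the genotype) refers to an altered Disc1, whose product is a scaffold studied in psychiatric disease; the sources used here do not give the promoter of that allele or the age of the mice. Mice of both groups had an intraperitoneal tamoxifen injection, and the BLA of both hemispheres was taken 6 h later, with the tissue of 5 mice pooled for each group. Each genotype has 2 libraries, replicate 1 and replicate 2, which may come from the same pooled mice; p-values then measure the spread between libraries, which may be technical. The libraries held 40954622 and 39643489 UMIs in DISC1-N and 48439711 and 37840301 UMIs in WT. Between 5 and 21 barcode sequences were shared by any 2 libraries, and 0 of these pairs were endothelial nuclei.

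Endothelial cells line the blood vessels, and in the brain they form the blood-brain barrier together with pericytes and astrocyte endfeet. Tight junctions seal the gaps between neighbouring cells, vesicle traffic across the cell is kept low, and nutrients and drugs pass through or are returned by transporters in the cell membrane. Wnt signals from the surrounding tissue keep this barrier programme running through beta-catenin, and the ETS, SOX and KLF families of transcription factors maintain endothelial identity. Arteries, capillaries and veins differ in the genes their endothelium uses.

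The genes that most set these nuclei apart can be read at their start sites. In 2 comparisons given below, with pericyte-like mural nuclei and with all other kept nuclei, Adgrl4, Ctla2a, Ly6c1 and Slco1a4 were among the 12 genes of largest difference in both, and the 250 bases before their start sites are shown for that reason. Adgrl4 is an adhesion G protein-coupled receptor of endothelium, Ly6c1 a membrane-anchored antigen of mouse brain vessels, and Slco1a4 an organic anion transporter of the blood-brain barrier, while Ctla2a encodes a cysteine protease inhibitor. The sequences come from RefSeq on build GRCm38.p6 and run 5′ to 3′ towards the start site: Adgrl4 from chr3:151437632-151437881 on the plus strand, Ctla2a from chr13:60936626-60936875, Ly6c1 from chr15:75048838-75049087 and Slco1a4 from chr6:141856221-141856470, these 3 on the minus strand. Ctla2a and Ly6c1 have 2 listed start sites each, and the first is shown. Capitals mark AGGAAG or CGGAAG, 2 longer forms of the site that ETS factors bind, or their reverse complement. The shorter ETS core GGAA is not marked on its own and also occurs in uncapitalised letters of each sequence.
Adgrl4: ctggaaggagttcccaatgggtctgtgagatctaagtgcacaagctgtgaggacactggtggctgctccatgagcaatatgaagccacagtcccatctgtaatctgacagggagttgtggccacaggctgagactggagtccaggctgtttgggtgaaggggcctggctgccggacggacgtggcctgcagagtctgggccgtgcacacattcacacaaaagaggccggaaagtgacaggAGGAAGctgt
Ctla2a: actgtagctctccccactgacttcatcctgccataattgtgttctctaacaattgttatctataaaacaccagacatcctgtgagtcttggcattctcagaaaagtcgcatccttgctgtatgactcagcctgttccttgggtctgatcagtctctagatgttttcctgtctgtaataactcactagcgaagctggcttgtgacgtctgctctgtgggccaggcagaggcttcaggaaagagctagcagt
Ly6c1: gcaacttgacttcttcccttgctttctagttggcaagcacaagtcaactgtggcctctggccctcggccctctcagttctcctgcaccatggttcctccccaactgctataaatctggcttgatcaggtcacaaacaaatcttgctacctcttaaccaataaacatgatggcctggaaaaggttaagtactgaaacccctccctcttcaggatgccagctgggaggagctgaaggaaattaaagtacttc
Slco1a4: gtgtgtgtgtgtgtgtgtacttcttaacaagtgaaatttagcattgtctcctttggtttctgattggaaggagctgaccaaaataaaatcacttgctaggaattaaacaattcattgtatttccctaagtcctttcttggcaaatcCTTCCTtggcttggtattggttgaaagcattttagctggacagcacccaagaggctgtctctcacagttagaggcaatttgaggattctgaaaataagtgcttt
The motif lies 10 bases before the start site in Adgrl4 and 104 bases before it, on the other strand, in Slco1a4. Neither of the 2 marked forms is among these letters in Ctla2a and Ly6c1, though the shorter core GGAA is. Of all 32851 RefSeq promoters of this length, 39.2% hold one of the motifs on either strand. Promoters of genes called higher in endothelial than in mural nuclei held one in 41.8% of 134 cases, against 36.2% of 1032 promoters of all genes tested there. Promoters of genes higher than in the other nuclei held one in 41.1% of 813 cases, against 43.6% of those of the genes tested, so the 2 differences run opposite ways.

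The 5 marker genes that chose the nuclei were spread over many of them. Flt1, a VEGF receptor, gave 413 UMIs in 102 nuclei. Mecom, a zinc finger transcription factor gene, gave 388 UMIs in 94 nuclei, and Cldn5, the main claudin of brain endothelial tight junctions, gave 259 UMIs in 78. Ptprb, an endothelial receptor phosphatase, gave 154 UMIs in 75 nuclei, and Pecam1, the endothelial adhesion molecule CD31, gave 50 UMIs in 37. Most nuclei held several of them: 1 nucleus had UMIs of 1 marker gene, 19 of 2, 36 of 3, 41 of 4 and 15 of all 5. Levels are given as CPM, the UMIs of a gene per 1000000 UMIs summed over the nuclei of that class in a library. By this measure Flt1 stood at 1900 and 2813 in DISC1-N and at 1295 and 2429 in WT, and Pecam1 at 144 and 348 in DISC1-N and at 270 and 260 in WT. Both ranges overlap between the genotypes.

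Nuclei just inside the threshold, with 3 or 4 marker UMIs, numbered 16 and had a median of 33.5 marker UMIs per 10000. Nuclei that met every other part of the rule with a sum of 2 numbered 11, with a median of 28.7 per 10000. Beyond the sum of 3, the limit of 10 per 10000 reduced 230 nuclei to 130, the neuronal limit left 117 and the oligodendrocyte limit left 112. All 112 nuclei also met a rule built on 12 other endothelial genes in place of the 5 markers, which found 131 nuclei. All 16 nuclei just inside held UMIs of those 12 genes, as did 8 of the 11 just outside. Their medians were 93.0 per 10000 just inside and 143.5 just outside, and their summed levels 103 and 97.4 per 10000. By these genes the sum of 3 does not part the nuclei on its 2 sides.

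Endothelial genes that took no part in the choice were also present. The 22 other endothelial genes of a list that includes Cdh5 (VE-cadherin), Tek (the angiopoietin receptor Tie2), Erg, Emcn and Egfl7 were all detected, and each of the 112 nuclei held UMIs of the list. Their summed level was 17501 CPM over all endothelial nuclei, against 648 CPM in mural nuclei, 234 CPM in astrocytes and 227 CPM in the other kept nuclei. Marker lists of other vessel and border cells were mixed. All 6 border macrophage genes were at 0, as were 4 of the 5 lymphatic genes (Prox1, Lyve1, Pdpn and Ccl21a), while the fifth, Flt4, had 6 UMIs. Of 10 mural genes outside the rule, the smooth muscle genes Acta2, Myh11 and Tagln were at 0, but the list summed to 3487 and 1546 CPM in DISC1-N and to 567 and 1504 CPM in WT endothelial nuclei, chiefly from Ebf1 (191 UMIs in 82 nuclei) and Vtn (106 UMIs in 3 nuclei). The sum of that list over all endothelial nuclei was 1778 CPM, against 5269 CPM in mural nuclei and 43.3 CPM in the other nuclei. In the comparison with the other kept nuclei described below, Kcnj8, Vtn, Ndufa4l2 and Ebf1, 4 of 7 mural genes tested, and Flt4 were called higher; the part of mural RNA in the results was not tested. The 10 fibroblast genes summed to 48.6 CPM, 10 microglia genes to 313 CPM and 8 oligodendrocyte genes to 184 CPM. Neuronal genes (8 of 8 detected) summed to 2346 CPM, against 6217 CPM in the other nuclei, and astrocyte genes (10 of 10) to 1692 CPM, against 13953 CPM in astrocytes; their part in the results was not tested. A count of 0 among the 185022 UMIs of all endothelial nuclei covers counting error only.

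The nuclei were shallow, and a few of them carried much of the sums. The median endothelial nucleus held 1026 UMIs, with medians of 1294 and 958.5 in DISC1-N and 1394.5 and 953.5 in WT, against 3709 UMIs over all kept nuclei. The 112 nuclei comprised 18 and 50 in DISC1-N and 14 and 30 in WT, and gave sums of 41580 and 71805 UMIs in DISC1-N and 37056 and 34581 UMIs in WT. In all, 11 nuclei exceeded 3 times the median of their library: 2 and 6 in DISC1-N, with 45.5% and 32.8% of the summed UMIs, and 3 and 0 in WT, with 62.3% and 0%. WT replicate 1 stood apart. Its 3 deep nuclei held 8522, 8193 and 6354 UMIs with only 15, 16 and 14 marker UMIs, and with 20, 44 and 32 UMIs of the neuronal list. The deepest nucleus of DISC1-N replicate 1 differed in kind: its 11503 UMIs included 103 marker UMIs, 43 UMIs of the 4 pericyte genes in the rule and 90 UMIs of Vtn, the pericyte gene for vitronectin. Some results below are also given without the deep nuclei.

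**Figure D1:**
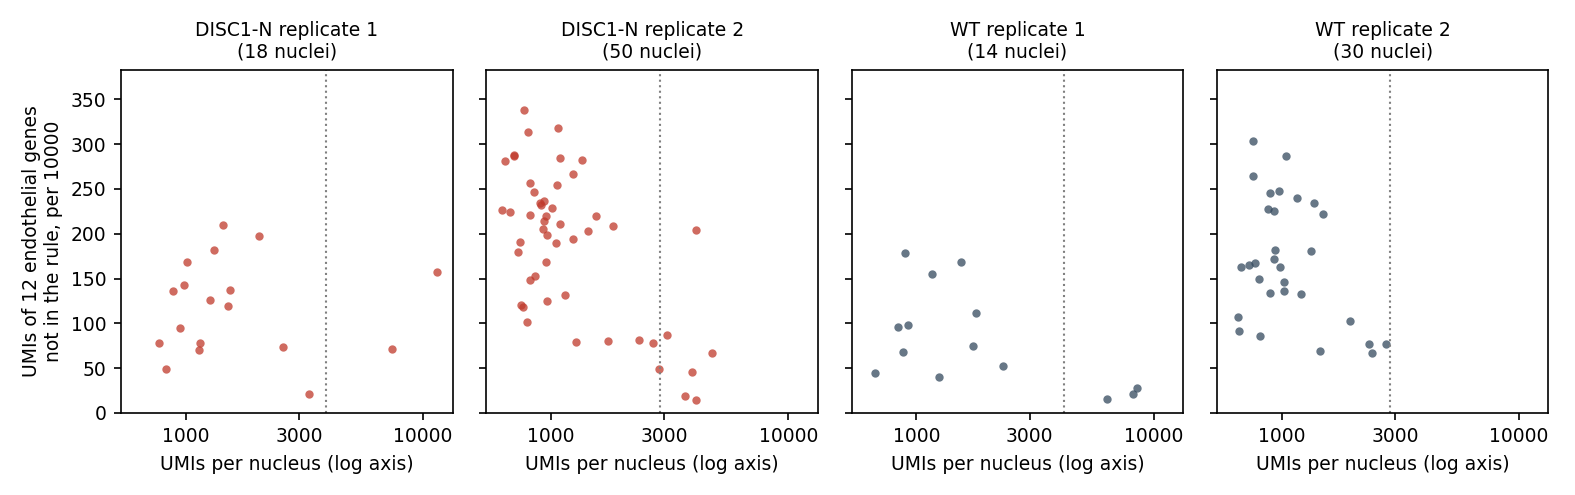
UMIs of 12 endothelial genes outside the rule per 10000 UMIs (vertical axis) against UMIs per nucleus (horizontal log axis), 1 point per endothelial nucleus and 1 panel per library; the dotted line is 3 times the library's median depth. The 3 deepest nuclei of WT replicate 1 lie lowest in their panel, and the deepest nucleus of all, with 11503 UMIs, is in DISC1-N replicate 1.

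Endothelial sums were compared with the sums of all 26738 other kept nuclei of the same libraries. Of 17138 genes tested, 790 (4.61%) were higher in endothelial nuclei in edgeR's quasi-likelihood test with library as a block (Benjamini-Hochberg adjusted p under 0.05), and 2169 were lower. The median log2 fold change of all genes tested was -0.92, so differences are read relative to that value; with DESeq2 size factors it was -0.56, with 988 genes higher and 1222 lower, which moved the higher calls to 44.7% of all calls, against 26.7%. Setting the 3958 genes at 0 in the endothelial sums at a floor of 3 counts gives a median of -0.07. For those genes the floor is an upper limit, taken from raw CPM without the scaling of the fit. It can exceed the level in the other nuclei, so -0.07 is an upper limit and not a corrected centre. Without DISC1-N replicate 2, which has the most endothelial nuclei, 497 genes were higher. Counts of list members called in this comparison are to be read against 790 higher (4.61%) and 2169 lower of all 17138 genes tested.

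The 12 genes of largest difference had to average at least 100 CPM in endothelial nuclei and be higher there in all 4 libraries. Those traits were fixed by the choice. All averaged at least 118 CPM in endothelial nuclei and were near 0 elsewhere. Slco1a4 stood at 4281 and 6991 CPM in DISC1-N and at 1619 and 7923 CPM in WT endothelial nuclei, against 2.30 to 3.83 CPM in the other nuclei of the 4 libraries. Its log2 fold change was 9.77 ± 0.52 (SE worked back from the F statistic, edgeR adjusted p = 6.63e-77). That Slco1a4 was higher in every library was part of the choice. The WT libraries were the lowest and the highest of its 4 endothelial levels. Adgrl4 (2140, 1866, 1133 and 1735 CPM in endothelial nuclei of DISC1-N replicates 1 and 2 and WT replicates 1 and 2) had a log2 fold change of 9.43 ± 0.41 (edgeR adjusted p = 1.22e-114). Robo4, a guidance receptor that stabilises vessels, averaged 128 ± 92.0 CPM in endothelial nuclei and 0.0815 ± 0.0690 CPM in the others (SD, n = 4 libraries). Sox17, a transcription factor of arterial and barrier endothelium, averaged 181 ± 89.2 CPM in endothelial nuclei and 0.172 ± 0.123 CPM in the others. Ly6c1, Ly6a and Ctla2a had log2 fold changes of 9.50 ± 0.40, 9.34 ± 0.36 and 9.29 ± 0.34. Wfdc1, Tmem252, Dipk2b, Tecrl and AU021092, which are not on any list used here, lay between 9.26 and 9.56. Members of the Ly6 family resemble each other in sequence and Ctla2a overlaps 2 other gene models, which makes their counts uncertain.

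Transporters of the blood-brain barrier were mostly higher. Of 26 transporters, 26 were tested and 23 were higher in endothelial nuclei, with a median log2 fold change of 3.93 against -0.92 over all genes; the other 3 did not pass. Abcg2, the efflux pump BCRP, averaged 1926 ± 917 CPM in endothelial nuclei and 18.8 ± 2.76 CPM in the others (SD, n = 4), a log2 fold change of 5.73 ± 0.37. Slc2a1, the glucose transporter GLUT1, averaged 1373 ± 564 CPM, against 7.70 ± 1.49 CPM, a log2 fold change of 6.61 ± 0.35. These pumps and carriers thus differed in every library. Slco1c1, which carries thyroxine, stood at 1130.4 and 1643 CPM in DISC1-N and at 675 and 1822 CPM in WT, with a log2 fold change of 4.74 ± 0.32. Abcb1a, the efflux pump P-glycoprotein, had 166 UMIs in 69 nuclei and a log2 fold change of 8.94 ± 0.34. Tfrc, the transferrin receptor that brings iron into the brain, had a log2 fold change of 2.93 ± 0.29. Each of these 5 had an adjusted p of at most 1.95e-22 in edgeR's quasi-likelihood test.

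Junction genes were mixed. Of 18 tested, 12 were higher and Magi1 was lower, with a median log2 fold change of 1.81 (1.95 with the genes at 0 set at the floor, an upper limit). Esam, an adhesion molecule of endothelial junctions, averaged 359.9 ± 69.5 CPM in endothelial nuclei and 1.00 ± 0.264 CPM in the others (SD, n = 4), with a log2 fold change of 7.69 ± 0.43. Tjp1, the scaffold ZO-1, was at 1251 and 1713 CPM in DISC1-N and at 702 and 2082 CPM in WT endothelial nuclei, a log2 fold change of 1.10 ± 0.32 (edgeR adjusted p = 0.00612). Pard3, a polarity scaffold, was higher by 1.74 ± 0.29 on the log2 scale, while Afdn, an actin-binding junction scaffold, had -0.38 ± 0.32 and was not called. Magi1 at -1.04 ± 0.34 lay close to the median of all genes. Cgn and Marveld2, which encode tight junction proteins, had 0 UMIs.

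Receptors of growth factors followed a similar split. Among VEGF, angiopoietin, Notch and TGF-beta genes, 15 of 27 tested were higher, with a median log2 fold change of 2.30. Tek averaged 390.2 ± 177 CPM in endothelial nuclei and 33.2 ± 3.92 CPM in the others (SD, n = 4), with a log2 fold change of 2.67 ± 0.30. Eng, a TGF-beta co-receptor, had a log2 fold change of 6.38 ± 0.47, and Pdgfb, the ligand that recruits pericytes, 2.79 ± 0.41. Bmpr2, a BMP receptor, was higher by 1.19 ± 0.30 (edgeR adjusted p = 0.000828) but stood at only 81.0 CPM in WT replicate 1, against 529 to 808 CPM in the other 3 libraries.

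The Wnt pathway was represented at several levels. Of 19 tested genes, 14 were higher, with a median log2 fold change of 2.30. Lef1, the transcription factor through which beta-catenin acts, stood at 770 and 863 CPM in DISC1-N and at 378 and 607 CPM in WT endothelial nuclei, against a mean of 1.35 ± 0.291 CPM in the other nuclei. Its log2 fold change was 8.10 ± 0.33. Apcdd1, a Wnt inhibitor and target, and the receptor Fzd6 had log2 fold changes of 5.35 ± 0.42 and 5.38 ± 0.51, and Ctnnb1, beta-catenin itself, 1.08 ± 0.35 (edgeR adjusted p = 0.0153). Whether these genes differ from each other in fold change was not tested.

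Transcription factors of endothelium were higher in 15 of 17 genes tested, all but Ets2 and Etv6, with a median log2 fold change of 5.15. Fli1, an ETS factor, averaged 644 ± 349 CPM, against 10.1 ± 2.81 CPM in the others (SD, n = 4), a log2 fold change of 5.11 ± 0.30. Epas1, the hypoxia factor HIF-2 alpha, was even across libraries, with 673 and 418 CPM in DISC1-N and 513 and 521 CPM in WT, and a log2 fold change of 5.25 ± 0.31. Klf2, a factor induced by blood flow, had 313 and 292 CPM in DISC1-N and 243 and 260 CPM in WT, and Ets1 265 and 348 CPM in DISC1-N and 216 and 260 CPM in WT. Klf2 and Ets1 had log2 fold changes of 7.57 ± 0.48 and 5.08 ± 0.40, and their library values lie within a narrow band in both genotypes.

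Genes of vesicle traffic were few in UMIs. Of 11 tested, 7 were higher, with a median log2 fold change of 2.81. Nostrin, which traffics the endothelial nitric oxide synthase, averaged 689 ± 327 CPM, against 2.99 ± 0.903 CPM in the others (SD, n = 4), a log2 fold change of 7.04 ± 0.32. Nos3, that synthase, had 17 UMIs in 16 nuclei, and Mfsd2a, a lipid transporter that restrains transcytosis, had 43 UMIs in 32. Fcgrt, the neonatal Fc receptor, had 27 UMIs. Cav1, the caveolin of caveolae, had 10 UMIs in 9 nuclei, and Plvap, a marker of leaky fenestrated vessels, had 0 UMIs; at this depth a level under that of 3 UMIs in 185022 cannot be told from 0.

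Genes of the basement membrane were higher in 10 of 17 tested (median log2 fold change 2.68). Fn1, fibronectin, averaged 568 ± 229.8 CPM in endothelial nuclei and 1.88 ± 0.534 CPM in the others, Itga1, an integrin collagen receptor, 319 ± 139 CPM and 3.52 ± 0.427 CPM, and Sparc, a collagen-binding matrix protein, 246 ± 179 CPM and 9.80 ± 1.25 CPM (SD, n = 4). Lamb1, a laminin chain, was called lower with 0 endothelial UMIs.

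Interferon and antigen presentation genes were higher in 12 of 13 tested, all but Stat2, with a median log2 fold change of 4.24. The list gave 300 UMIs in 90 nuclei. Ly6e gave 83 of those UMIs, and 1 nucleus held 55. The sum was 2621 and 1421 CPM in DISC1-N and 1052 and 1446 CPM in WT. Ly6e had 746 and 348 CPM in DISC1-N and 378 and 376 CPM in WT, and a log2 fold change of 3.07 ± 0.29. H2-D1 and H2-K1, class I histocompatibility genes that resemble each other, had log2 fold changes of 4.24 ± 0.39 and 4.34 ± 0.49, and Ifitm3, an interferon-induced membrane protein, 7.36 ± 0.61. Ifitm3 was unevenly spread, with 433 and 167 CPM in DISC1-N and 0 and 57.8 CPM in WT. Its 32 UMIs came from 16 nuclei.

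Lists that touch on handling and stress had smaller differences. Glucocorticoid-induced genes were higher in 5 of 12 tested, with a median log2 fold change of 0.98, and Errfi1 was called lower with 0 endothelial UMIs. Zbtb16 was higher by 1.41 ± 0.29 and Mt1, a metallothionein, by 0.92 ± 0.30 on the log2 scale (edgeR adjusted p = 3.01e-05 and 0.0156), while Fkbp5 had -0.02. Summed over the list, endothelial nuclei had 1584 CPM, against 1355 CPM in mural nuclei, 2115 CPM in astrocytes and 538 CPM in the other nuclei. Immediate early and heat shock genes were higher in 5 of 17 tested; Hspa8, a constitutive chaperone, was higher by 0.99 ± 0.29, and Fos, Atf3 and Hspa1a had 0 UMIs in endothelial nuclei. The buffer for nuclear isolation contained actinomycin, an inhibitor of transcription.

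Neuronal and oligodendrocyte genes were on the low side. Of those tested, 4 of 5 neuronal genes and 5 of 6 oligodendrocyte genes were lower in endothelial nuclei, against 2169 of all 17138 genes. Syt1, a synaptic vesicle protein, averaged 1001 ± 415 CPM in endothelial nuclei and 3155 ± 105 CPM in the other nuclei (SD, n = 4). Its fitted log2 fold change was -2.55 ± 0.41. CPM uses raw UMI totals and the fit rescales them, so this fold is larger in size than the CPM values give. The rule itself limited UMIs of 3 neuronal and 2 oligodendrocyte genes, so these low levels are not independent of it.

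A narrower comparison set endothelial nuclei against 154 mural nuclei, which share the vessel wall and were chosen by the mirror image of the rule. Mural nuclei had a median of 1206 UMIs, close to the endothelial depth. Of 895 genes tested, 107 (12%) were higher and 113 lower in endothelial nuclei (edgeR's quasi-likelihood test, library as a block), and the median log2 fold change was 0.00. Without WT replicate 1 the number higher was 201 of 1244 tested, and without DISC1-N replicate 1 it was 163 of 1098. It was 39 of 430 tested with at least 1000 genes per nucleus. Leaving out the 37 mural nuclei with 2 or more UMIs of 5 astrocyte genes gave 67 of 581 tested. All 67 were among the 107, of which 84 were tested there. Such astrocyte UMIs were present in 9 of 112 endothelial nuclei, against 37 of 154 mural nuclei.

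Of the genes named for this comparison, 10 were at 0 in all 4 mural sums and are given as lower bounds, set against a floor of 3 counts over the 254527 mural UMIs. Itm2a, a membrane protein gene of brain capillaries, had 344 endothelial UMIs and was at least 158-fold higher. Adgrl4 had 325 UMIs and was at least 149-fold higher, Atp10a, a lipid flippase, 272 UMIs and at least 125-fold, and Hmcn1, a matrix protein of the immunoglobulin superfamily, 232 UMIs and at least 106-fold. Sema3c, a guidance ligand, Ctla2a, Pglyrp1, Cyyr1, Paqr5 and Klf2 were higher by at least 78.4, 71.1, 68.8, 46.3, 35.8 and 23.8-fold in that order. The 5 genes Itm2a, Adgrl4, Atp10a, Hmcn1 and Sema3c each had UMIs in at least 68 of the 112 endothelial nuclei, so no single nucleus carried them.

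Where mural nuclei held a few UMIs, the ratio of the pooled levels is given with its 95% exact counting interval. Slco1a4 had 1014 endothelial and 9 mural UMIs, a ratio of 155 (81.3 to 340), and a fitted log2 fold change of 7.30 ± 0.51 (edgeR adjusted p = 1.09e-06). Slc2a1 had 260 and 1 UMIs, a ratio of 358 (63.6 to 14181), and Ly6c1 277 and 1, a ratio of 381 (67.8 to 15105). Fn1 had 104 and 2 UMIs, a ratio of 71.5 (19.3 to 599). The intervals are wide because the mural counts are so few.

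Counts of list members that passed the filter here are descriptions only, since a gene scarce in mural nuclei entered through its endothelial level. Among transporters 11 of 11 tested were higher, among the other endothelial genes 11 of 11, among capillary genes 4 of 4, and among junction genes 3 of 6. Taking every list gene above the floor of 3 counts in either class, with lower counts set at the floor, 22 of 22 other endothelial genes were higher in the pooled endothelial sum, with a median log2 ratio of 4.14. For transporters it was 25 of 25 with a median of 3.33, and for all 895 genes tested 481 with a median of 0.06. Abcg2 was higher by 5.35 ± 0.51, Slco1c1 by 3.20 ± 0.36 and Tfrc by 3.46 ± 0.47 on the fitted log2 scale. Abcg2, Slco1c1 and Tfrc were thus higher against both other classes of nuclei. A gene scarce in mural nuclei could also enter the floor-based counts through its endothelial level, and the 895 genes passed a different filter. Those counts are therefore descriptions as well.

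Other roles separated endothelial from mural nuclei less evenly. Tek was higher by 3.95 ± 0.49, Lef1 by 3.45 ± 0.42, Fli1 by 3.52 ± 0.43, Nostrin by 4.01 ± 0.53 and Epas1 by 2.11 ± 0.34 on the log2 scale, each with an edgeR adjusted p of at most 0.000312. Esam was higher by 2.60 ± 0.45, Afdn by 2.23 ± 0.51 and Bmpr2 by 1.96 ± 0.46, the last in 3 of 4 libraries. Apcdd1 (1.25 ± 0.40, edgeR adjusted p = 0.0335) and Pard3 (1.05 ± 0.35, adjusted p = 0.0385) were called near the threshold; Apcdd1 was not called without either WT library. Tjp1, Ets1 and Fzd6 were not called, with 0.96 ± 0.38, 1.06 ± 0.43 and 0.00 ± 0.74. In the basement membrane list Fn1 was the gene called higher, while Itga1 and Itgb1, integrin subunits, had -0.28 ± 0.32 and -0.21 ± 0.48, and the median log2 ratio of the 17 members was 0.24 in the pooled sums.

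Among genes of neighbouring cells, Vtn was lower in endothelial nuclei, with a log2 fold change of -3.58 ± 0.88 (edgeR adjusted p = 0.00721), a call lost without WT replicate 2. In endothelial nuclei 90 of its 106 UMIs lay in the nucleus of 11503 UMIs. Ebf1, a transcription factor used as a mural marker, was present in 82 of 112 endothelial nuclei at 1032 CPM, against 1634 CPM in mural nuclei, and its difference of -0.64 ± 0.35 was not called. The astrocyte glutamate transporter genes Slc1a2 and Slc1a3 had log2 fold changes of -2.02 ± 0.37 and -1.61 ± 0.41. The calls of Slc1a2 and Slc1a3 were lost when mural nuclei with 2 or more astrocyte UMIs were left out.

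**Figure D2:**
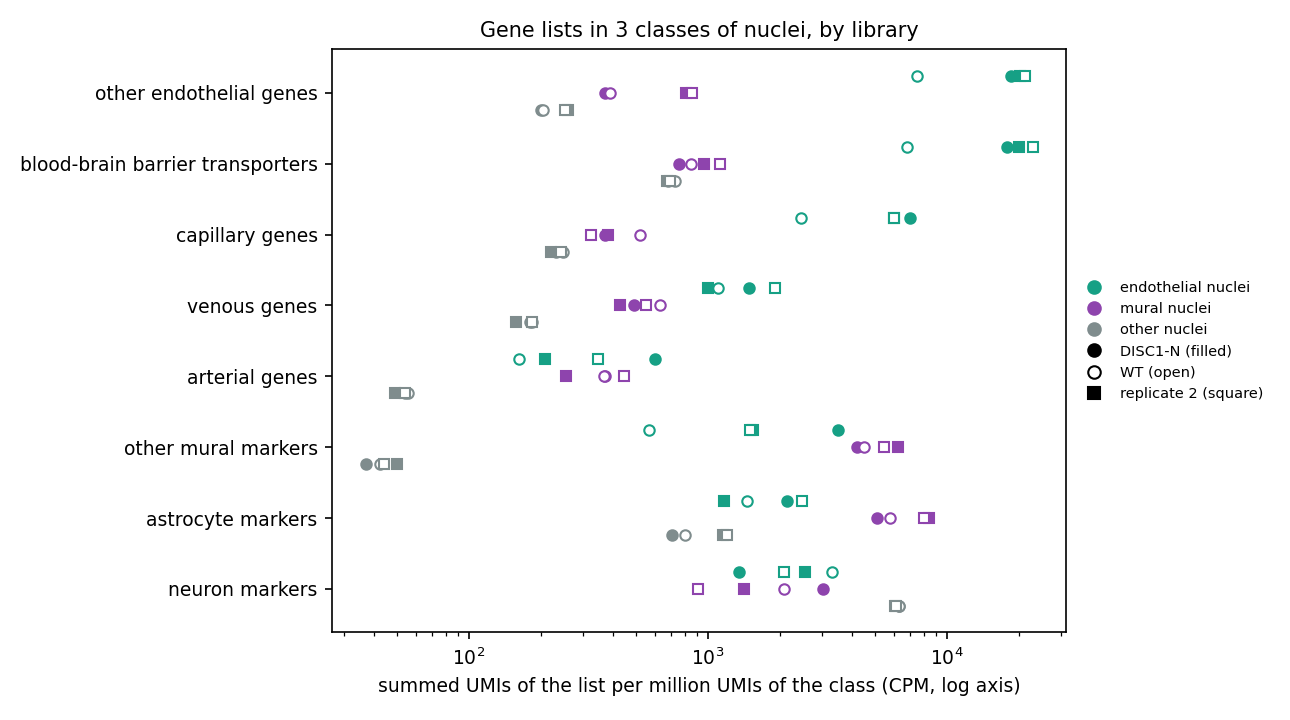
Summed CPM of 8 gene lists (horizontal log axis) in endothelial, mural and other kept nuclei, 1 point per library; filled points are DISC1-N, open points WT, circles replicate 1 and squares replicate 2. Other endothelial genes, transporters and capillary genes lie highest in endothelial nuclei in all 4 libraries, and WT replicate 1 is the lowest endothelial point for these 3 lists, which share some genes.

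Genes that mark segments of the vessel tree were read in every library. The 9 capillary genes gave 1021 UMIs in 111 of 112 nuclei, the 15 venous genes 241 UMIs in 68 nuclei and the 13 arterial genes 58 UMIs in 25 nuclei; lists differ in size and genes differ in detection, so these sums do not rank the segments. The 5 arterial genes Sema3g, Gkn3, Gja5, Fbln5 and Cytl1, and 5 venous genes, among them Ackr1 and Selp, had 0 UMIs. Against the other kept nuclei, 9 of 9 capillary genes were higher, 7 of 12 venous genes and 2 of 8 arterial genes, Tm4sf1 and Mgp, of which Mgp had 7 UMIs, 6 of them in the nucleus of 11503 UMIs. Of the venous genes called, Ephb4 had 3 UMIs and Icam1 had 4. Lcn2 had 14, of which 10 lay in 1 nucleus of 8522 UMIs in WT replicate 1. The other venous genes called, Slc38a5, Vwf, Tmsb10 and Il1r1, had 18 to 86 UMIs. Arterial and venous UMIs met in 16 nuclei.

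Each nucleus was thinned to 600 UMIs, a depth that all 112 reached, to compare libraries. A capillary UMI was then found in 94.4% and 98.0% of DISC1-N nuclei and in 78.6% and 100% of WT nuclei, a venous UMI in 61.1% and 36.0% of DISC1-N and in 64.3% and 63.3% of WT nuclei, and an arterial UMI in 3 of 18 and 7 of 50 DISC1-N nuclei and in 1 of 14 and 3 of 30 WT nuclei. Unthinned, the shares were 100% and 100% of DISC1-N and 92.9% and 100% of WT nuclei for capillary genes, and 72.2% and 46.0% of DISC1-N and 85.7% and 66.7% of WT nuclei for venous genes. For arterial genes they were 22.2% and 22.0% of DISC1-N and 21.4% and 23.3% of WT nuclei. Astrocytes, which should lack most of these genes, gave 16.8% to 24.4% for capillary, 15.4% to 22.8% for venous and 1.66% to 4.20% for arterial genes after the same thinning, from median depths of 2008 to 2233 UMIs. Endothelial shares lay above the astrocyte range for every list, and DISC1-N replicate 2 had the lowest venous share.

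Of the capillary genes, Itm2a stood at 2838 and 1950 CPM in DISC1-N and at 594 and 1851 CPM in WT. Spock2, a matrix proteoglycan, stood at 577 and 1086 CPM in DISC1-N and at 702 and 1157 CPM in WT, and Car4, a carbonic anhydrase of the capillary wall, at 1034 and 460 CPM in DISC1-N and at 270 and 549 CPM in WT. Of the 105 UMIs of Car4, 30 lay in the nucleus of 11503 UMIs, and without the deep nuclei it stood at 529 and 518 CPM in DISC1-N and at 500.5 and 549 CPM in WT. No order of the genotypes is common to these 3 genes. Slc7a5, the large amino acid transporter LAT1, had 818 and 515 CPM in DISC1-N and 135 and 376 CPM in WT, so both DISC1-N values were above both WT values. Its log2 fold change between the genotypes was 1.41 ± 0.70, with an edgeR adjusted p of 0.997. The other capillary genes with at least 20 UMIs were Tfrc (110 UMIs), Cxcl12 (88), Mfsd2a (43), Rgcc (41) and Slc16a1 (33).

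Venous genes with at least 20 UMIs were Il1r1, Tmsb10, Vwf and Nr2f2, and the arterial one was Tm4sf1. Il1r1, the interleukin-1 receptor, had 313 and 474 CPM in DISC1-N and 108 and 1012 CPM in WT, and 23 of its 86 UMIs lay in 1 nucleus of 4069 UMIs. Vwf, von Willebrand factor, was even, with 168 and 153 CPM in DISC1-N and 108 and 145 CPM in WT. Nr2f2, a transcription factor of veins, had 168 and 69.6 CPM in DISC1-N and 162 and 86.8 CPM in WT, so that replicate 1 was higher than replicate 2 in both genotypes. Tm4sf1, a membrane protein gene, had 409 and 139 CPM in DISC1-N and 108 and 145 CPM in WT, with 36 UMIs in 20 nuclei, 13 of them in the nucleus of 11503 UMIs. Without the deep nuclei Tm4sf1 had 176 and 187 CPM in DISC1-N and 71.5 and 145 CPM in WT.

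**Figure D3:**
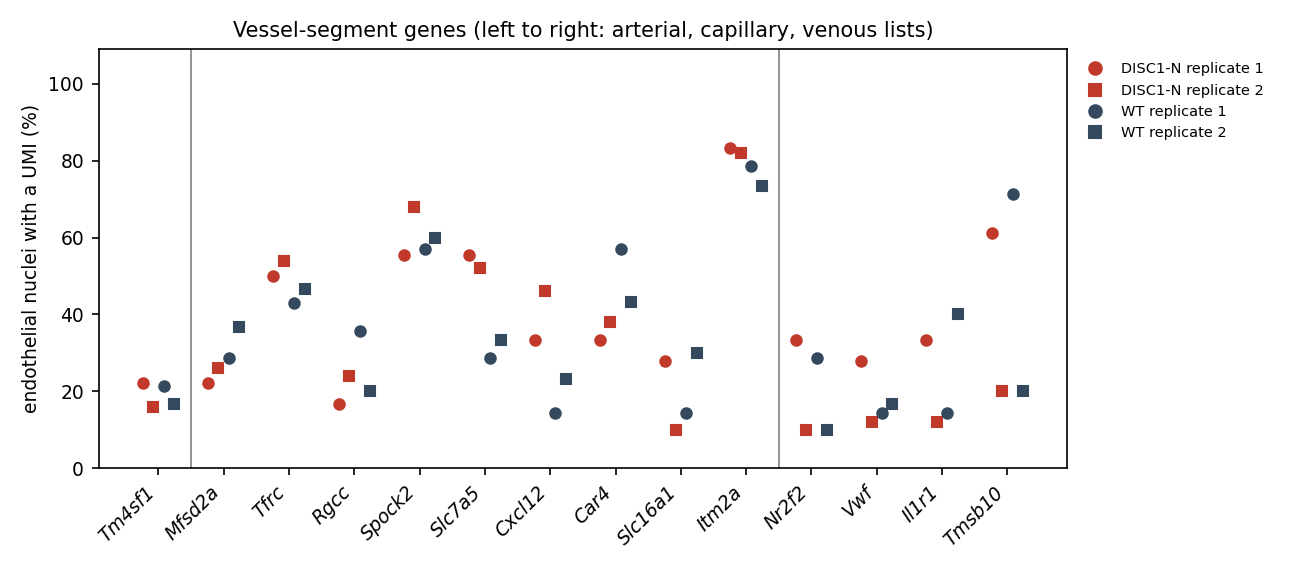
Share of endothelial nuclei with at least 1 UMI (vertical axis, %) for arterial, capillary and venous genes with at least 20 UMIs, 1 point per library and gene, unthinned. Itm2a is the most widely detected of them, with 83.3% and 82.0% of nuclei in DISC1-N and 78.6% and 73.3% in WT.

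Endothelial nuclei made up 0.399% and 0.610% of kept nuclei in DISC1-N and 0.232% and 0.371% in WT. The 95% exact binomial intervals were 0.237% to 0.630% and 0.453% to 0.803% in DISC1-N and 0.127% to 0.388% and 0.250% to 0.529% in WT, and cover counting error only. Means were 0.505% ± 0.149 in DISC1-N and 0.301% ± 0.0983 in WT (SD, n = 2 each), a difference of 0.204 percentage points. Both DISC1-N libraries lay above both WT libraries, though the lower DISC1-N share and the higher WT share differed by less than their counting intervals. The two-sided exact permutation test gave p = 0.333, the smallest p that 2 against 2 libraries allow. Within replicate 1 the difference was 0.168 points and within replicate 2 it was 0.239 points. The difference was 0.0722 points with at least 1000 genes per nucleus, 0.0983 points without DISC1-N replicate 2, 0.134 points without WT replicate 1 and 0.309 points without DISC1-N replicate 1. The other settings gave 0.170 to 0.273 points. With the 12 other genes as the rule, and without the deep nuclei, a DISC1-N and a WT library overlapped in order (exact p = 0.667 each).

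Mural nuclei showed the same order, at 0.599% and 0.683% of kept nuclei in DISC1-N and 0.413% and 0.568% in WT. Their difference was 0.186 points within replicate 1 and 0.115 points within replicate 2, and the order was lost with a marker sum of 5 or more, with 20 UMIs per 10000 and without the deep nuclei (exact p = 0.667 each). There were 0.667 and 0.893 endothelial nuclei per mural nucleus in DISC1-N and 0.560 and 0.652 in WT. These ratios are free of the number of neurons captured, and again both DISC1-N values lay above both WT values, by 0.107 within replicate 1 and 0.241 within replicate 2. The counts are small: the order was lost with the highest Scrublet scores removed, with the 12 other genes as the rule and without the deep nuclei (exact p = 0.667 each), and with at least 1000 genes per nucleus the ratio differed by -0.0440 (DISC1-N minus WT) within replicate 1. How many vessels the tissue held and how many nuclei survived isolation cannot be told apart.

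**Figure D4:**
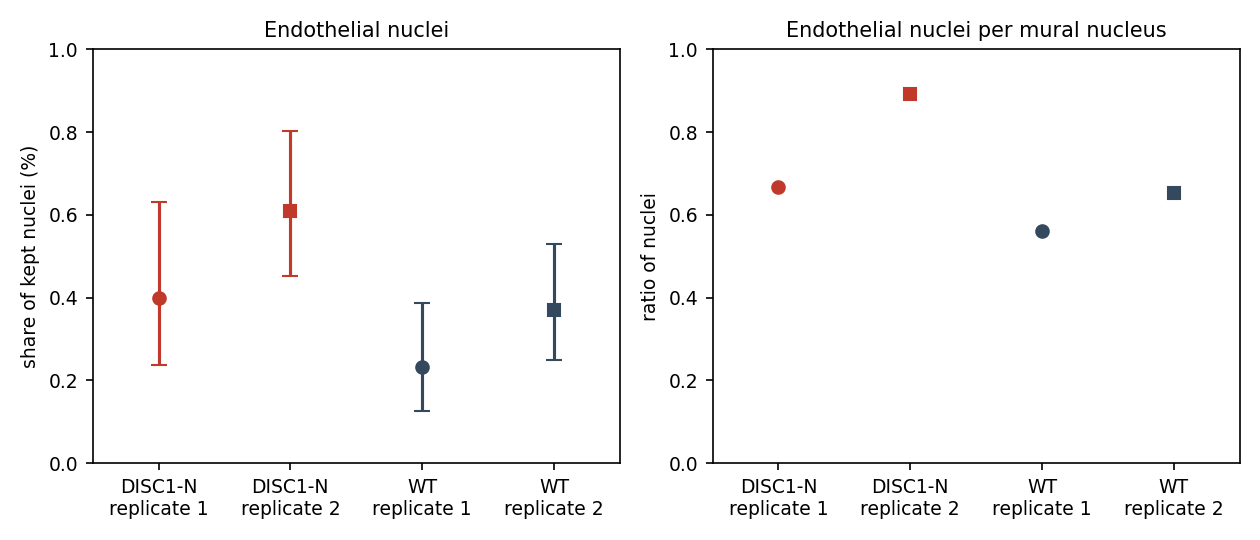
Left, endothelial nuclei as a share of kept nuclei (%), 1 point per library with its 95% exact binomial interval; right, endothelial nuclei per mural nucleus; circles are replicate 1 and squares replicate 2. Both DISC1-N points lie above both WT points in each panel, and the counting intervals of DISC1-N replicate 1 and both WT libraries overlap.

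Gene levels within endothelial nuclei were compared between DISC1-N and WT, and 0 of 730 genes (0%) were called by edgeR's quasi-likelihood test; 5 had an unadjusted p under 0.05. DESeq2 called 0 with 2 under that p, limma-voom 0 with 7, and edgeR with the replicate number as a block 0 with 7. The biological coefficient of variation was 0.442. In simulated counts of this design the test recovered 0% of 76 genes changed 4-fold and 0% of 86 changed 2-fold, and the fit with the replicate number as a block recovered 27.3% of 77 genes changed 4-fold and 1.35% of 74 changed 2-fold, with 1 false call. Most differences of that size could thus have been missed.

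The 6 genes of lowest p each had an adjusted p of 0.997. Erbb4, a neuregulin receptor of interneurons, stood at 529 and 1226 CPM in DISC1-N and at 135 and 231 CPM in WT, a log2 fold change of 2.23 ± 0.76. Its 123 UMIs came from 16 nuclei, 39 of them from 1 nucleus of 3926 UMIs. Without the 11 deep nuclei Erbb4 was at 88.2 and 124 CPM in DISC1-N and at 71.5 and 231 CPM in WT, and the groups overlapped. Erbb4 also overlaps 8 other gene models. Itgb1, an integrin subunit, had 625 and 265 CPM in DISC1-N and 54.0 and 202 CPM in WT, with 23 of 54 UMIs in the nucleus of 11503 UMIs, and 132 and 311 CPM in DISC1-N against 71.5 and 202 CPM in WT without the deep nuclei, where the groups overlapped. The mitochondrial gene mt-Cytb had 1756 and 501 CPM in DISC1-N and 351 and 202 CPM in WT, with 60 of its 129 UMIs in that same nucleus, of whose UMIs 2.23% were mitochondrial.

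The other 3 genes were Ccnd3, Xdh and Rpl38. Ccnd3, a cyclin, was lower at 144 and 223 CPM in DISC1-N, against 405 and 463 CPM in WT, a log2 fold change of -1.23 ± 0.58, with 53 UMIs in 37 nuclei and at most 5 in any 1. Without the deep nuclei it was at 132 and 270 CPM in DISC1-N and at 715 and 463 CPM in WT, and the groups stayed apart. Xdh, xanthine dehydrogenase, had 361 and 432 CPM in DISC1-N and 216 and 86.8 CPM in WT, a log2 fold change of 1.31 ± 0.63; without the deep nuclei it had 353 and 518 CPM in DISC1-N and 357 and 86.8 CPM in WT, and the groups overlapped. Rpl38, a ribosomal protein gene, had 697 and 376 CPM in DISC1-N and 108 and 260 CPM in WT, a log2 fold change of 1.55 ± 0.67. The nucleus of 11503 UMIs held 18 of its 69 UMIs, and without the deep nuclei Rpl38 had 353 and 498 CPM in DISC1-N and 214 and 260 CPM in WT, with the groups apart. All 3 genes were picked by their p in these same libraries, so groups that stay apart are a description and no support. None of the 3 passed, and their adjusted p ranged from 0.810 to 1.00 over the alternative settings.

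Vtn was the gene called under a setting other than the one above. It had 2164 and 223 CPM in DISC1-N and 0 and 0 CPM in WT, and 90 of its 106 UMIs lay in the nucleus of 11503 UMIs that also held 43 pericyte-marker UMIs. It failed the expression filter, was called with a mean of at least 20 counts, with no filter and without DISC1-N replicate 2, and without the deep nuclei stood at 0 and 332 CPM in DISC1-N and at 0 and 0 CPM in WT. Vtn was named after its values were seen.

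Disc1 itself was at the limit of detection. It gave 1 and 3 UMIs in DISC1-N and 1 and 3 UMIs in WT, in 8 nuclei, and was below the filter. A 3′ assay of so few UMIs does not check the modified allele.

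The endothelial lists were low in 1 library. The other endothelial genes summed to 18567 and 20277 CPM in DISC1-N and to 7475 and 21197 CPM in WT, so that WT replicate 1 was low and the other 3 libraries were close. Without the deep nuclei they summed to 17333 and 24987 CPM in DISC1-N and to 13942 and 21197 CPM in WT. Transporters summed to 17941 and 20110 CPM in DISC1-N and to 6801 and 22932 CPM in WT, and without the deep nuclei to 17818 and 24779 CPM in DISC1-N and to 13298 and 22932 CPM in WT. Both lists hold Slco1a4 and Abcb1a, so their sums are partly the same counts. Slco1a4 alone gave 1014 UMIs, of 3238 for the other endothelial genes and 3235 for the transporters. Neuronal markers summed to 1347 and 2549 CPM in DISC1-N and to 3319 and 2082 CPM in WT. Without the deep nuclei they summed to 1411 and 1783 CPM in DISC1-N and to 1930.4 and 2082 CPM in WT, so WT replicate 1 no longer stood out; the part of neuronal RNA in the list values was not tested. Of 17 other endothelial genes tested between the genotypes, 14 had a log2 fold change above 0, with a median of 0.49 against 0.02 over all 730 genes, and 0 were called. Without WT replicate 1 it was 10 of 17, with a median of 0.32 against 0.11 over all genes. Of 16 transporters, 13 were above 0 with a median of 0.46, against 8 of 18 with a median of -0.08 without WT replicate 1, a change of sign.

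**Figure D5:**
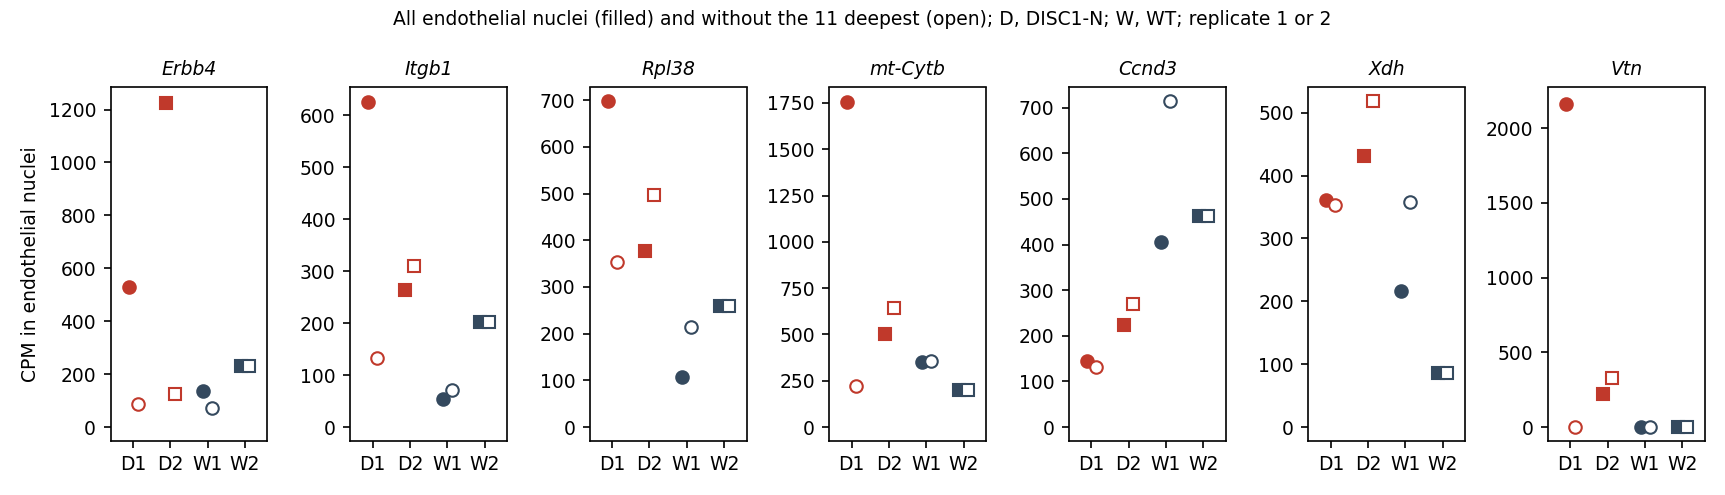
CPM in endothelial nuclei (vertical axis, linear, scaled per panel) of the 6 genes of lowest p between the genotypes and of Vtn, for DISC1-N (D1, D2) and WT (W1, W2) libraries; filled points use all nuclei and open points leave out the 11 deepest. Without those nuclei Erbb4, Itgb1, mt-Cytb and Xdh overlap between the groups, while Ccnd3 stays lower and Rpl38 higher in both DISC1-N libraries. The 6 genes were picked by their p in these same libraries, so groups that stay apart are a description only.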

How the data were processed

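The 2 DISC1-N and 2 WT libraries were made from nuclei with the Chromium 3′ kit (v3), per the protocols in the labels. For each barcode and gene the authors deposited raw UMI counts from Cell Ranger (build mm10, per the labels), with no normalization. Headers name Cell Ranger 7.0.0 for replicate 1 and 6.0.2 for replicate 2 of both genotypes, while the submitters' processing notes name 7.0.0, so the replicate number stands for a processing batch that is balanced over genotype. The sources used here do not give how intronic and multiply mapped reads were treated or how barcodes were called.

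Counts of the chosen nuclei were summed per library and class (34581 to 71805 endothelial UMIs) and tested with edgeR 4.0.16 (quasi-likelihood test after TMM scaling, genes filtered by filterByExpr with a minimum count of 10, Benjamini-Hochberg adjusted p under 0.05) in R 4.3.3: 4 sums between genotypes, and 8 sums with library as a block between classes. The 14 genes of the rule were left out of the class fits; the written plan says 13, a miscount. For shares, an exact permutation test (two-sided, scipy 1.17.1) was used. No doublets were removed beyond the limits in the rule; of the 1518 highest Scrublet scores (scanpy 1.11.5, 0.8% per 1000 nuclei), 7 were endothelial. Log2 fold changes are DISC1-N minus WT, or endothelial minus the other class. Their SE is the absolute log2 fold change divided by the square root of the F statistic. It is approximate and carries little where the fold is near 0. CPM values use raw UMI totals, while fitted folds follow TMM scaling, so the 2 differ in scale. The pairing of same-numbered libraries was checked: deviations from the group means had r = -0.0753 over 730 genes. The fits were tested on simulated counts with 200 genes changed: against mural nuclei 98.7% of 4-fold and 28.9% of 2-fold changes were recovered with 3 false calls, and against the other nuclei 14.1% and 3.03% with 4 false calls.

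The nuclei, lists and tests were chosen with earlier results of these data known. Named genes are the 6 of lowest p and Disc1 between genotypes, the 12 largest log2 fold changes in each class comparison (adjusted p under 0.05, mean of at least 100 CPM, higher in all 4 libraries, no gene models named Gm or Rik), the 4 members of highest mean CPM per list, and segment genes with at least 20 UMIs; other genes were named after their values were seen. Alternatives were other marker, depth, gene and doublet limits, 12 other genes as rule, blocks, DESeq2 1.42.0 and its size factors, limma 3.58.1 (voom), other filters, thinned sums, and each library left out; leaving out mural nuclei with astrocyte UMIs, and deep nuclei with the replicate block, were added after seeing the data. Of 32285 features, 32158 matched GENCODE vM21. For promoters, 86 of 107 and 607 of 790 called genes matched RefSeq. Values of some list members are not reported here.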

Additional observations from a re-analysis of the deposited data

How the results depend on the processing

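Between genotypes 0 genes were called in all but 3 settings: 1 gene, Vtn, with a mean of at least 20 counts, 1 with no filter, and a range of 0 to 1 when each library was left out. With the replicate block 0 genes were called, with or without the deep nuclei, and the share difference as the mean within replicate numbers was 0.204 points; the share difference kept its direction in all settings, from 0.0722 to 0.309 points. Genes higher than in mural nuclei numbered 39 with at least 1000 genes, 63 with a marker sum of 5 or more, 44 with a mean of at least 20 counts, 67 without mural nuclei that held astrocyte UMIs, 309 with no filter, and 77 to 201 with 1 library left out; fewer or more genes were tested in each of these. Genes higher than in the other nuclei numbered 452 with at least 1000 genes, 4974 with limma-voom (the cause was not tested), and 497 to 797 with 1 library left out. Of 1269 values under the alternatives, for 87 pairs of a named gene and a comparison, 1200 kept direction and side of the threshold, 69 lost their call and 0 reversed. In the class comparisons only genes called in the main fit entered this tally. A setting that gave a gene no adjusted p added no value. The 83 values between the genotypes came from 6 genes that were not called, so they had no call to lose. Depth is a limit, since 112 nuclei gave 185022 UMIs, as are the 2 libraries per group.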
